A study of Mus musculus with 8 samples.

Results

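B cell identity genes are the 8 genes *Cd79a*, *Cd79b*, *Blk*, *Pax5*, *Cd22*, *Cr2*, *Ms4a1* and *Fcer2a*, which were taken by name from the 54532 genes of the deposited read count table and followed in all 8 RNAseq libraries of sorted GFP+ cells. Each name has 1 entry in the table, and all 8 genes passed the filter, which asked for 10 or more counts on average over the libraries. The libraries came from females aged 8 months, which in every group carried Tie2e-cre and the mTmG reporter. KO mice were TERTfl/fl and WT mice were TERT+/+. GFP+ cells were collected by FACS from SAT (subcutaneous adipose tissue) of mice on a high-fat diet (HFD), and from SAT, VAT (visceral adipose tissue) and skeletal muscle of mice on chow. Each of these 4 pairs has 1 WT and 1 KO library, so that no group has a replicate, and the sources used here do not state whether a library holds cells of 1 mouse or of several. GFP marks every cell in which, or in whose ancestors, Cre acted, and Tie2 regulatory sequences are known to be active in some blood-forming cells besides endothelium, so that the reporter by itself does not restrict the sort to endothelial cells.

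B cells recognise antigen through a surface immunoglobulin that cannot signal alone. The proteins of *Cd79a* and *Cd79b* form the pair of signalling chains bound to it, and Src-family kinases, of which *Blk* encodes one, phosphorylate them when antigen binds. *Pax5* encodes the transcription factor that commits lymphoid progenitors to the B lineage and keeps them there, and *Cd79a* is among the genes it helps to switch on. *Cd22* encodes a sialic acid-binding inhibitory receptor that damps the signal, while *Cr2* encodes complement receptor CD21, which amplifies it and which follicular dendritic cells also carry. *Ms4a1* encodes CD20 of the B cell membrane, and *Fcer2a* encodes CD23, the low-affinity IgE receptor of mature follicular B cells. Plasma cells lose most of these products. Adipose depots and the lymph nodes embedded in subcutaneous fat both hold B cells.

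The stretches of genome just before the transcription starts of 4 members are shown because their genes span the differences described below, from *Cd79a*, the most abundant member per length in every library, to *Cr2* and *Fcer2a*, which differed most between the fat depots. Each run is the 200 bases that precede a RefSeq start, 5′ to 3′ along the gene's strand, in GRCm38.p6. These starts can differ from the gene limits in the count table. There *Cd79a* begins at base 24897381, inside its run, and *Cd22* reaches base 30880342, so that its run lies within the gene. Capitals mark matches, on either strand, to the EBF1 motif (TCCC and GGGA set 2 bases apart), GGAAGT (an ETS core) or CAGGTG (an E-box); the octamer ATGCAAAT was searched too.
Cd79a, chr7:24897297-24897496, plus strand: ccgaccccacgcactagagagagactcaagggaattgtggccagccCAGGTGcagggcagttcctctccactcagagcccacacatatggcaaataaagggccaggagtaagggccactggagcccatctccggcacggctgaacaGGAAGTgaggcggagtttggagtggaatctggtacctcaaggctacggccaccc
Cd22, chr7:30879029-30879228, minus strand: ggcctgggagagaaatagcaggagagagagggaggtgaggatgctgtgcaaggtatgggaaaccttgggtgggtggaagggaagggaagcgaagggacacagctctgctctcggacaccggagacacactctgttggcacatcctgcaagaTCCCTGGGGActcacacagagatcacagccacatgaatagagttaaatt
Cr2, chr1:195176720-195176919, minus strand: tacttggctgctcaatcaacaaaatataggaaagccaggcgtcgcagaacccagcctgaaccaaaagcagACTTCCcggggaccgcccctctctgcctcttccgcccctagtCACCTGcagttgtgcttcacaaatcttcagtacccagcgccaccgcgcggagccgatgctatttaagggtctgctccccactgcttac
Fcer2a, chr8:3694175-3694374, minus strand: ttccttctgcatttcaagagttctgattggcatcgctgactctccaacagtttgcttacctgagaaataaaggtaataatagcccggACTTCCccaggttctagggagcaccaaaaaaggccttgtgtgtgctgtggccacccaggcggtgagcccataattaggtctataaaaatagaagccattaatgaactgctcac
The *Cd79a* run holds an E-box 154 bases and an ETS core 54 bases before the start. The *Cd22* run holds the EBF1 letters 49 bases before the start, the *Cr2* run an ETS core at 130 and an E-box at 88 bases, and the *Fcer2a* run an ETS core at 113 bases, these last 3 on the opposite strand. RefSeq lists 3 starts for *Fcer2a*, and the run shown precedes the most upstream one; of the windows of the others, chr8:3690862-3691061 held an E-box at 99 bases and chr8:3690391-3690590 no match. No match overlaps another, and the octamer is in none of the 4 runs. Only these exact letters were searched, so that a run without a match to a motif may still hold a variant of it. Of 32851 windows of this length before RefSeq starts, 0.594% held the EBF1 letters, 16.7% the ETS core, 13.9% the E-box and 1.38% the octamer, so that a match to either of the shorter motifs is common. The window of *Pax5* (chr4:44710695-44710894, minus strand) held none of the 4 motifs. *Cd79b*, *Ms4a1* and *Blk* had no entry by name among the RefSeq windows used here.

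Library totals ran from 6214269 counts (HFD SAT, WT) to 18855772 counts (chow SAT, WT). *Tert*, the deleted gene, had 114 counts in WT and 0 in KO for HFD SAT, 70 and 11 for chow SAT, and 24 and 7 for muscle. In VAT it had 3 counts in the library labelled WT (9389345 counts in all) and 9 in the library labelled KO (14344720 in all). This order goes against the labels, but counts this few cannot tell whether the labels are right. A direction between the VAT libraries thus rests on labels that *Tert* neither bears out nor refutes. Wherever VAT values are paired below, the library labelled WT comes before the library labelled KO. The WT library of chow SAT stood apart: *Malat1*, a nuclear RNA, was at 292 CPM there and between 2149 and 5836 CPM in the other 7 libraries. Levels below are CPM, counts scaled to the library size after TMM, or RPKM, which also divides by the gene length in kilobases that the table lists. All 10 endothelial markers (*Pecam1*, *Cdh5*, *Kdr* and others) were detected in every library. Their summed level was 327 to 616 CPM in the SAT libraries and 1551 to 2194 CPM in the VAT and muscle libraries.

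B cell identity genes were detected in every library. Together they took between 0.0147% (VAT, labelled KO) and 0.205% (chow SAT, WT) of all counts. Their summed level was 1479.8 CPM in WT and 1520.5 CPM in KO for HFD SAT, and 2341 and 1673 CPM for chow SAT. It was 1040.0 and 903 CPM for muscle, and 163 and 156 CPM for the VAT libraries labelled WT and KO. VAT thus held the lowest levels of the series in both genotypes. In bulk RNA of a sorted fraction, fewer B cells and less of each RNA per cell cannot be told apart.

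**Figure D1:**
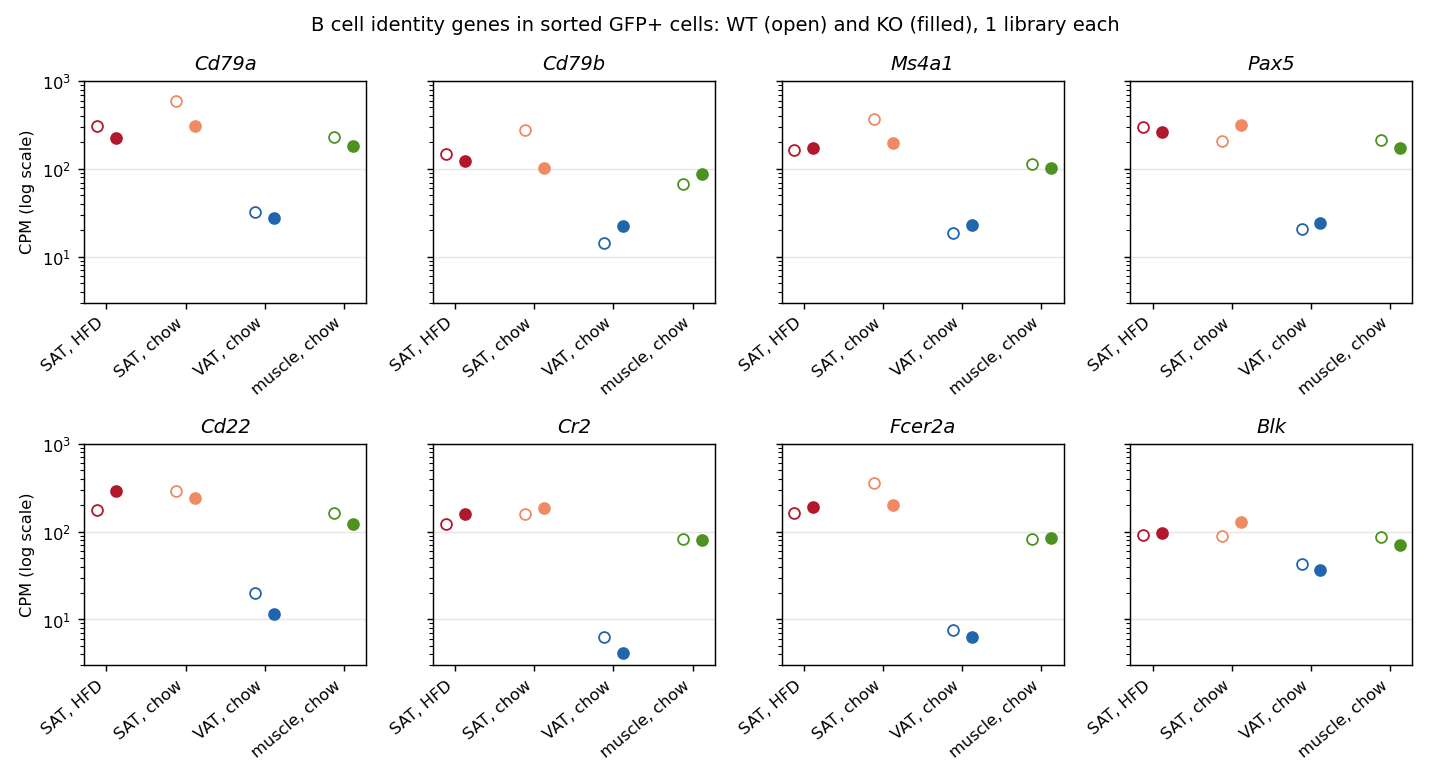
Level of each of the 8 genes in CPM on a log scale (y axis) in the 4 tissue and diet pairs (x axis), with the WT library as an open and the KO library as a filled circle. Both VAT circles lie below all others for all 8 genes, from 4.13 CPM for Cr2 to 42.9 CPM for Blk.

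Among the receptor signalling chains, *Cd79a* (chr7:24897381-24902197) was at 308 CPM in WT and 225 CPM in KO for HFD SAT, 596 and 307 CPM for chow SAT, 32.4 and 27.6 CPM for VAT, and 231 and 181 CPM for muscle. The library labelled WT lay above the one labelled KO in all 4 pairs, or in 3 of 4 if the VAT labels were exchanged. *Cd79b* (chr11:106311341-106314762) was at 149 and 125 CPM for HFD SAT, 275 and 103 CPM for chow SAT, 14.3 and 22.5 CPM for VAT, and 67.9 and 88.1 CPM for muscle, in the same order. Here WT was the higher library in SAT and the lower one in muscle, as was the library labelled WT in VAT. Per length, *Cd79a* exceeded *Cd79b* by 1.20 times (VAT, labelled KO) to 3.35 times (muscle, WT) in RPKM. *Blk* (chr14:63372836-63417037), the kinase, was at 92.5 and 97.1 CPM for HFD SAT, 90.3 and 129.7 CPM for chow SAT, 42.9 and 36.6 CPM for VAT, and 86.4 and 70.1 CPM for muscle. *Blk* had the narrowest range of the members, with 3.54-fold between its highest and lowest library.

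*Pax5* (chr4:44524757-44710487), the lineage factor, was at 303 CPM in WT and 263 CPM in KO for HFD SAT, 206 and 313 CPM for chow SAT, 20.9 and 24.1 CPM for VAT, and 214 and 175 CPM for muscle. It and *Cd79a* were the members for which a muscle library reached above a SAT library. The ratio of *Pax5* to *Cd79a* in RPKM was 0.0568 in the WT library of chow SAT and lay between 0.106 and 0.192 in the other 7 libraries. *Pax5* is listed at 8853 bases and *Cd79a* at 1457 bases, and KO over WT in chow SAT followed gene length over all genes. With that trend subtracted, KO over WT in chow SAT was 0.02 for *Pax5* and −0.15 for *Cd79a* on the log2 scale. *Pax5* overlaps short antisense and unprocessed transcripts with few counts, and whether reads were counted by strand is not given in the sources used here.

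Of the coreceptors, *Cd22* (chr7:30865402-30880342) was at 178 and 291 CPM (WT and KO) for HFD SAT, 290.3 and 239 CPM for chow SAT, 19.9 and 11.6 CPM for VAT, and 162 and 122 CPM for muscle. *Cr2* (chr1:195136811-195176716) was at 122 and 159 CPM for HFD SAT, 158 and 183 CPM for chow SAT, 6.27 and 4.13 CPM for VAT, and 83.2 and 79.9 CPM for muscle. All SAT libraries lay above all muscle libraries for both genes. The 2 VAT values of *Cr2* rest on 56 counts each. Per length, *Cr2* was the lowest member in every library, at 0.509 to 22.6 RPKM, and *Cd79a* the highest, at 19.0 to 409 RPKM.

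Of the other surface proteins, *Ms4a1* (chr19:11249675-11266241) was at 165 and 172 CPM (WT and KO) for HFD SAT, 372 and 198 CPM for chow SAT, 18.5 and 22.8 CPM for VAT, and 112 and 103 CPM for muscle. *Fcer2a* (chr8:3681737-3694175) was at 164 and 189 CPM for HFD SAT, 353 and 199.7 CPM for chow SAT, 7.61 and 6.34 CPM for VAT, and 83.5 and 84.8 CPM for muscle. *Fcer2a* had the widest range of the members, 55.7-fold from its highest library, WT of chow SAT, to the VAT library labelled KO. Both VAT libraries lay below the other 6 for 8 of 8 members, against 11.9% of 16971 genes. All 4 SAT libraries lay above the 4 VAT and muscle libraries for 6 of 8, all but *Cd79a* and *Pax5*, against 7.62% of genes.

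Which tissue differences exceed the spread between libraries was tested with edgeR's quasi-likelihood test over all 16971 genes, with genotype in the fit, so that the WT and KO library of a tissue and diet serve as its 2 libraries. In VAT on chow, 8 of 8 B cell identity genes were lower than in chow SAT at an adjusted p (Benjamini-Hochberg) under 0.05, where 1.74% of all genes were lower and 3.31% higher; at an unadjusted p under 0.05 it was 8 of 8 members and 20.3% of genes. *Fcer2a* fell most, 39.0-fold (log2 fold change −5.29 ± 0.401 SE, edgeR adjusted p = 0.00436), followed by *Cr2*, 33.0-fold (−5.04 ± 0.385, edgeR adjusted p = 0.00436). *Cd22* was 17.0-fold lower, *Cd79a* 14.4-fold, *Ms4a1* 13.5-fold, *Pax5* 11.5-fold and *Cd79b* 9.86-fold, with edgeR adjusted p-values of 0.00436 to 0.0159. *Blk* fell least, 2.76-fold (−1.47 ± 0.321, edgeR adjusted p = 0.0424), and with median-of-ratios scaling it did not pass (−1.35, edgeR adjusted p = 0.0638), which left 7 of 8. The median of the members was −3.80 on the log2 scale, against −0.08 for all genes tested. The separate origin of the libraries is not stated, so that these p-values measure the spread between these libraries alone.

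The difference was present in each genotype taken alone. On the log2 scale *Fcer2a* was −5.53 in WT and −4.98 in KO, *Cd79a* −4.20 and −3.47, *Cr2* −4.65 and −5.47, and *Blk* −1.07 and −1.82. By the labels, *Cd79b* spanned the widest gap between genotypes, −4.26 in WT and −2.19 in KO. All these values are ratios of single libraries, and the gaps depend on the VAT labels, which *Tert* neither bears out nor refutes. The WT values also rest on the WT library of chow SAT. Without the WT library of chow SAT, which stood apart, 8 of 8 members stayed past the threshold, with a median of −3.63, and likewise without the KO library of chow SAT. Without the VAT library labelled WT 4 of 8 did (*Cd79a*, *Cd22*, *Cr2* and *Fcer2a*), and without the one labelled KO 4 of 8 (*Cd79a*, *Ms4a1*, *Cr2* and *Fcer2a*); without any 1 of the HFD SAT and muscle libraries 7 of 8 did, *Blk* being lost. In these fits a lone library is assumed to vary as the other groups do, and all 8 members kept their direction.

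*Blk* stood out from the other members in VAT by its level relative to them. In RPKM its ratio to *Cd79a* was 0.716 in both VAT libraries, and between 0.0817 (chow SAT, WT) and 0.233 (HFD SAT, KO) in the other 6. In VAT *Blk* was the member with the most counts, 383 and 497, whereas in the WT library of chow SAT it was the one with the fewest, 1493. *Blk* is known to be expressed by some γδ T cells as well as by B cells; the summed level of the 10 T cell markers in VAT was 285 and 372 CPM, and its part in the *Blk* level was not tested.

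Muscle on chow lay between the depots. Compared with VAT, 6 of 8 members were higher in muscle at an edgeR adjusted p under 0.05, where 0.884% of all genes were higher and 1.05% lower. *Cr2* rose most, 15.8-fold (3.98 ± 0.368 SE on the log2 scale, edgeR adjusted p = 0.00498), then *Fcer2a* 12.1-fold, *Cd22* 9.08-fold, *Pax5* 8.66-fold, *Cd79a* 6.81-fold and *Ms4a1* 5.17-fold. *Cd79b* differed by 2.07 ± 0.497 (edgeR adjusted p = 0.0874) and *Blk* by 0.98 ± 0.317 (edgeR adjusted p = 0.211) on the log2 scale. The count depends on single libraries: it was 1 of 8 (*Cr2*) without either VAT library, 2 (*Cr2* and *Fcer2a*) without the WT and 3 (with *Pax5*) without the KO library of muscle, and 8 without either library of chow SAT. With no filter on low counts, and with DESeq2's Wald test, *Cd79b* passed too, which made 7 of 8.

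Compared with chow SAT, 0 of 8 members were lower in muscle at an edgeR adjusted p under 0.05, where 0.147% of all genes were lower and 1.11% higher, and 6 of 8 at an unadjusted p under 0.05, where 11.5% of all genes differed in either direction. All 8 log2 fold changes were negative, with a median of −1.07 against −0.09 for all genes. They ran from −0.41 ± 0.330 SE for *Pax5* to −1.69 ± 0.340 for *Fcer2a* (edgeR adjusted p = 0.0645). Without the KO library of chow SAT 4 of 8 passed, *Cd79a*, *Cd79b*, *Ms4a1* and *Fcer2a*; without the WT library of chow SAT, 0 of 8 did.

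Between diets in SAT, 0 of 8 members passed the edgeR adjusted threshold, where 0% of all genes were higher and 0% lower, and 0 of 8 had an unadjusted p under 0.05, where 7.98% of genes did; DESeq2's Wald test passed 0 of 8 members too. The log2 fold changes of HFD over chow ran from −0.73 ± 0.355 SE (*Ms4a1*) and −0.72 ± 0.318 (*Cd79a*) to 0.14 ± 0.329 (*Pax5*), with a median of −0.36. The median of all genes was −0.24 here and −0.09 with median-of-ratios scaling, so that part of the negative values is shared with all genes. The WT libraries alone gave −1.18 for *Ms4a1*, −1.11 for *Fcer2a* and −0.95 for *Cd79a*, where the KO libraries gave −0.20, −0.08 and −0.45. *Cd79b* (−0.89 in WT and 0.27 in KO), *Cd22* (−0.71 and 0.28), *Pax5* (0.56 and −0.25) and *Blk* (0.04 and −0.42) had opposite signs. These WT values rest on the WT library of chow SAT, which stood apart. In the fit without that library the median was −0.13 for the members and −0.13 for all genes. HFD SAT was not tested against VAT or muscle. The order of the mean levels was chow SAT, HFD SAT, muscle, VAT (for *Pax5* HFD SAT first). Among chow SAT, HFD SAT and muscle it is a description, since no member passed the edgeR test where these were compared. Muscle and VAT were separated by that test for 6 of 8 members.

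**Figure D2:**
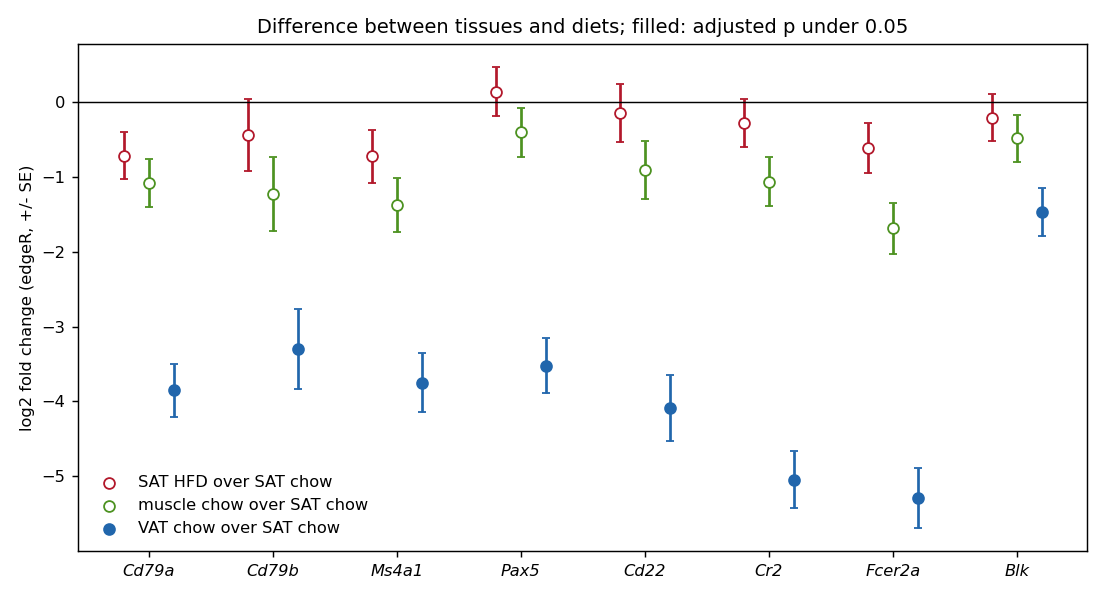
Log2 fold change between tissues and diets (y axis) for the 8 genes (x axis), from edgeR with bars of 1 SE, for HFD SAT, muscle and VAT, each over chow SAT; filled symbols have an adjusted p under 0.05. The VAT symbols are filled for 8 of 8 genes and lie between −5.29 and −1.47.

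The members moved together over the libraries. Pearson's r between the log2 CPM of any pair of members over the 8 libraries lay between 0.829 and 0.993, with a median of 0.962, as a description of libraries that differ in tissue. Of 12360 other genes averaging 50 counts or more, the 10 whose log2 CPM followed the members' mean most closely, with r between 0.988 and 0.995 over 8 libraries, included *Ighd*, *Ccr6*, *Gmip*, *Fcmr*, *Fam169b*, *Lcn4*, *H2-Ob*, *Acap1* and *Limk2*. *Ighd* encodes the heavy chain of IgD, *Fcmr* the receptor for IgM, *Ccr6* a chemokine receptor of B cells among others and *H2-Ob* a modulator of antigen loading in B cells. *Ighd* was at 297 and 421 CPM (WT and KO) for HFD SAT, 679 and 427 CPM for chow SAT, 29.1 and 24.6 CPM for VAT, and 217 and 197 CPM for muscle.

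Among 12 further genes of B cell receptor signalling, 3 were lower and 1 higher in VAT than in chow SAT by the edgeR test, with a median log2 fold change of 0.09. *Bank1*, a scaffold of the receptor pathway, was at 158 and 171 CPM in chow SAT and 69.8 and 70.7 CPM in VAT, and fell by 1.23 on the log2 scale (edgeR adjusted p = 0.0441). *Cd81*, a tetraspanin that many cell types express, rose by 1.86 (edgeR adjusted p = 0.0174). The kinases *Syk* (0.97 ± 0.421) and *Lyn* (1.17 ± 0.321) and the phospholipase *Plcg2* (0.08 ± 0.289), all shared with myeloid cells, did not pass.

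Of 12 B cell transcription factors, 3 were lower in VAT than in chow SAT and 3 higher in muscle than in VAT, the same 3 genes: *Spib* (−3.60 and 3.19), *Pou2af1* (−3.25 and 2.95) and *Bcl11a* (−2.95 and 3.10), all at edgeR adjusted p-values of 0.00436 to 0.00755. *Pou2af1* encodes a coactivator of octamer factors in B cells. *Ebf1*, which acts with *Pax5* in the lineage but which stromal and fat cells also express, was at 46.1 and 90.4 CPM in chow SAT and 46.5 and 43.5 CPM in VAT, and did not pass (−0.57 ± 0.365 SE, edgeR adjusted p = 0.440). *Ikzf3*, *Irf8* and *Irf4*, the most abundant of the 12, did not pass either, with −1.002, −0.01 and −0.30. The median over the 12 was −1.08.

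Of 17 surface and homing genes, 10 were lower in VAT than in chow SAT, with a median of −2.47. *Fcmr* (−4.35), *Ccr6* (−4.27), *Tnfrsf13c*, the receptor for the survival factor BAFF (−3.79), and *Fcrl1* (−3.58) fell by amounts within the range of the members. *Vpreb3*, of the surrogate light chain family, also fell, from 15.1 and 8.20 CPM in chow SAT to 1 and 2 counts in VAT. *Cxcr5*, the homing receptor for follicles, fell by 2.74. *Fcgr2b*, an inhibitory Fc receptor that macrophages also carry, went the other way: it rose in VAT by 2.19 (edgeR adjusted p = 0.0135). *Ccr7* (−2.66 ± 0.736 SE) and *Cd37* (−1.14 ± 0.346) did not pass. In muscle over VAT, 6 of the 17 rose (*Vpreb3*, *Ccr6*, *Tnfrsf13c*, *Fcmr*, *Fcrl1* and *Siglecg*) and 3 fell (*Fcgr2b*, *Cd40* and *Cd180*). Between diets and between genotypes, 0 genes of these 3 lists passed the edgeR test, nor did any in muscle over SAT chow.

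Markers of other cell types differed between the same libraries. All 10 T cell markers fell in VAT compared with chow SAT, with log2 fold changes of −3.05 for *Cd3e*, −3.55 for *Cd3d* and −2.73 for *Cd3g*. Their summed level was 1652 to 4327 CPM in SAT, 496 to 705 CPM in muscle and 285 to 372 CPM in VAT. The members' summed level was 0.541 to 1.01 times that of the T cell list in SAT, 1.48 and 1.82 times in muscle, and 0.571 and 0.419 times in VAT, so that B and T lymphocyte RNA were both low in VAT. All 8 macrophage markers rose in VAT compared with chow SAT, *Adgre1* by 3.53, *Csf1r* by 3.63 and *Cd68* by 2.77. Their sum was 9218 and 9092 CPM in VAT against 192 to 847 CPM in the other 6 libraries. Of 10 endothelial markers 7 rose in VAT and 5 in muscle compared with chow SAT. Of the defining ones, *Cdh5* rose by 2.02 and 2.40, while *Pecam1* and *Kdr* did not pass. The members' summed level was 2.72 to 4.53 times that of the endothelial list in SAT. It was 0.559 and 0.412 times in muscle, and 0.0783 and 0.100 times in VAT. Of 7 neutrophil markers 6 rose in muscle compared with chow SAT, *S100a8* by 7.26, *S100a9* by 7.46 and *Ly6g* by 7.50, and their sum was 12176 and 15475 CPM in muscle against 49.1 to 495 CPM elsewhere. No marker of the T cell, macrophage or endothelial lists was at 0 in any library; in HFD SAT 2 neutrophil markers were. CPM is a share of a library, and the part of these other RNAs in the levels of the B cell identity genes was not tested.

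**Figure D3:**
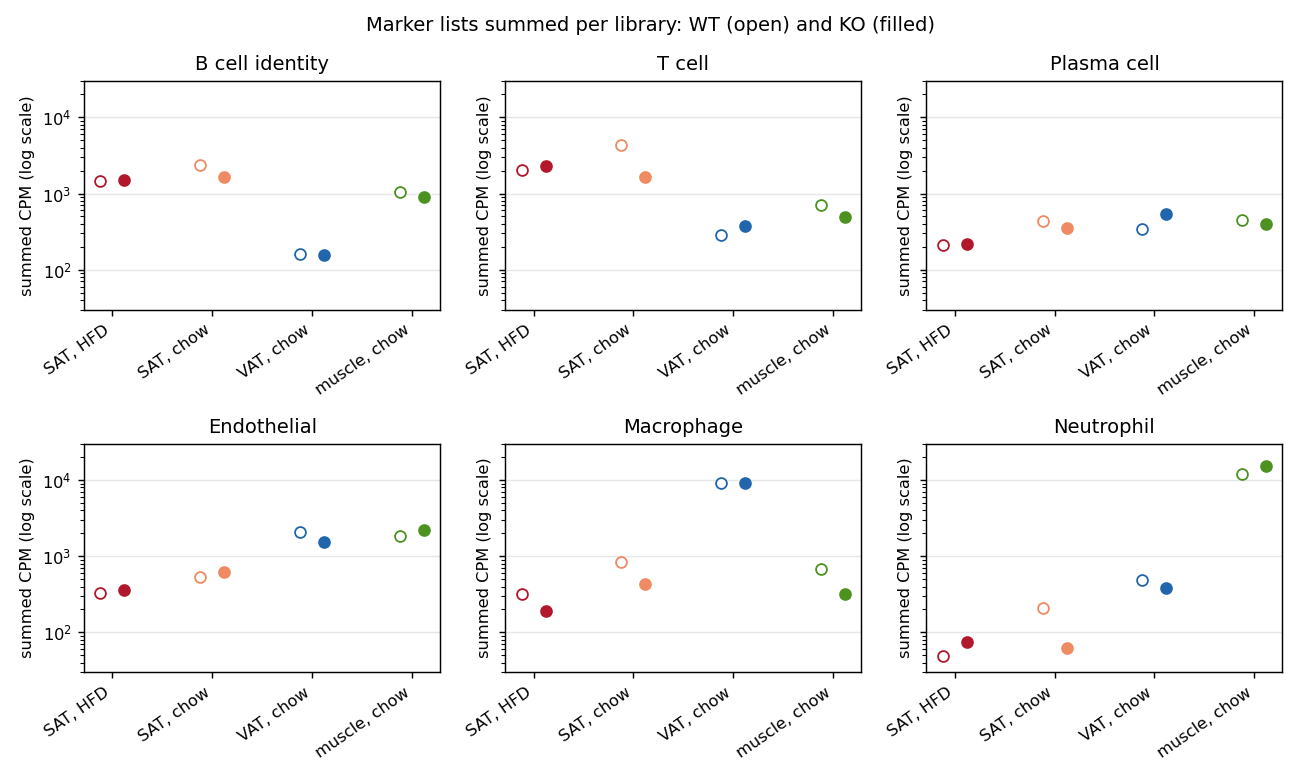
Summed CPM on a log scale (y axis, shared) of the 8 B cell identity genes and of the marker lists of T cells, plasma cells, endothelial cells, macrophages and neutrophils, in the WT (open) and KO (filled) library of each tissue and diet (x axis). The B cell and T cell sums are lowest in VAT, where the macrophage sum is highest at 9092 and 9218 CPM, and the plasma cell sum stays between 214 and 544 CPM.

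Structures of lymph nodes were looked at through 2 marker lists, since *Cr2* is also a gene of follicular dendritic cells. *Cxcl13*, the chemokine of follicles, had 19 and 78 counts (WT and KO) in HFD SAT, 35 and 37 in chow SAT, 306 and 58 in VAT, and 14 and 2 in muscle. Its highest count was in the VAT library labelled WT, and between VAT and chow SAT it did not pass (2.72 ± 1.19 SE, edgeR adjusted p = 0.251). *Madcam1* had 39 and 7 counts in chow SAT and at most 1 in any other library. *Glycam1*, of high endothelial venules, was at 112 and 31.5 CPM in chow SAT, 26.4 and 46.3 CPM in muscle, and 4.82 and 7.12 CPM in HFD SAT, with 1 and 0 counts in VAT. Of the 4 tested genes of the follicular dendritic cell and lymph node list 0 passed between VAT and chow SAT, and of the 3 of the high endothelial venule list 1 was lower, *Glycam1*. The part of lymph node tissue in the members' levels was not tested. Of 6 plasmacytoid dendritic cell markers 1 was lower in VAT than in chow SAT (*Ccr9*), of 7 stromal markers 0 passed, and of 4 mast cell and basophil markers 0 did.

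The study's main question is what loss of *Tert* does to the sorted cells, so KO was then compared with WT. Across the 4 pairs, with tissue and diet as a block, 0 of 8 B cell identity genes passed the edgeR test in either direction. Of all genes 0.00589% were higher, which is 1 gene, and 0% lower. At an unadjusted p under 0.05 it was 0 of 8 members and 1.64% of genes, and DESeq2's Wald test called 0 of 8 members. The log2 fold changes ran from −0.50 ± 0.225 SE for *Cd79a* (edgeR adjusted p = 0.9999) to 0.08 ± 0.235 for *Pax5*, with a median of −0.16 against 0.02 for all genes. *Cd79a* was the 1 member that differed in the same direction in all 4 pairs, lower in the library labelled KO in 4 of 4, where 9.56% of genes kept 1 direction. Without the VAT pair it was again the 1 member with a single direction, lower in KO in 3 of 3, where 22.8% of genes kept 1 direction. With the VAT labels exchanged it was lower in 3 of 4, and 0 members kept 1 direction in all 4 pairs, where 13.1% of genes did. By the labels, *Cd22* was higher in KO in 1 pair and the other 6 members in 2 pairs each.

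**Figure D4:**
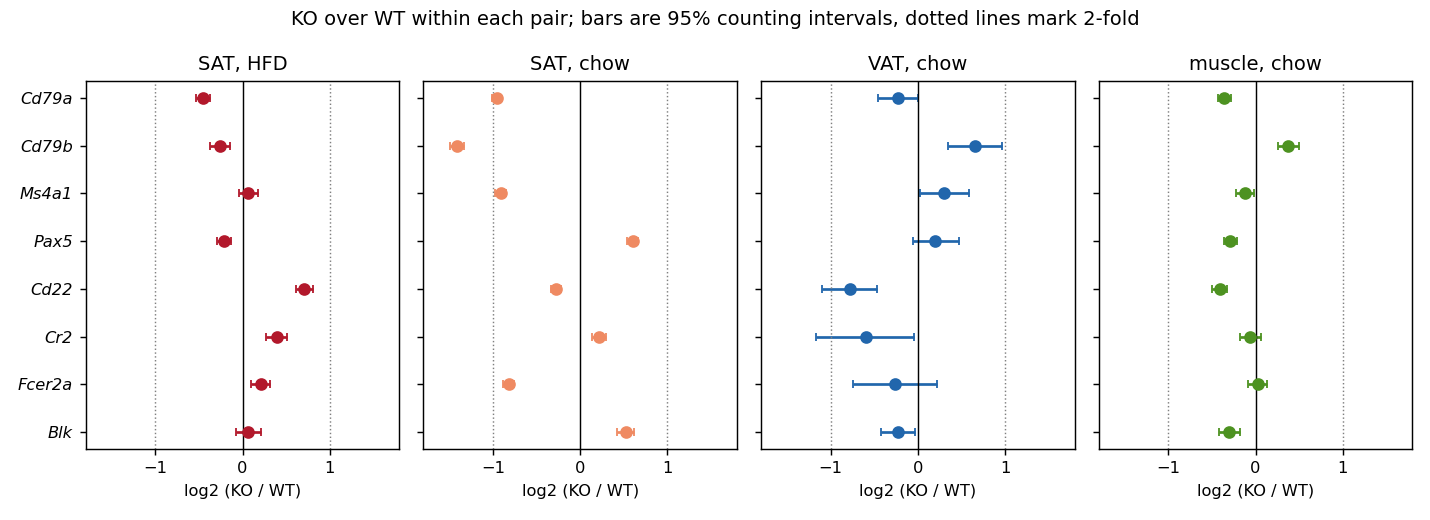
Log2 ratio of KO to WT (x axis) for the 8 genes (y axis) within each of the 4 pairs, with 95% intervals that cover counting error only; dotted lines mark 2-fold. Only the interval of Cd79b in chow SAT lies wholly beyond 2-fold, at −1.50 to −1.34.

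Within a pair, the ratio of 2 libraries has no replicate check, and its exact 95% interval covers counting error only. In HFD SAT, 0 of 8 members lay beyond 2-fold with their whole interval, where 12.7% of genes were higher and 11.1% lower. *Cd22* was 1.63-fold higher in KO (0.71, interval 0.61 to 0.80), and *Cr2* (0.39) and *Fcer2a* (0.21) were also above 0 with their whole interval, as were 38.3% of genes. *Cd79a* (−0.45), *Cd79b* (−0.25) and *Pax5* (−0.21) were below 0, as were 34.3% of genes. The median of the members was 0.07 and that of all genes 0.04.

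In chow SAT, 1 of 8 members lay beyond 2-fold: *Cd79b* was 2.67-fold lower in KO (−1.42, interval −1.50 to −1.34), where 11.7% of genes were lower and 19.0% higher. *Cd79a* was at −0.96 (interval −1.01 to −0.91), *Ms4a1* at −0.91, *Fcer2a* at −0.82 and *Cd22* at −0.28, so that 5 of 8 were below 0, against 40.3% of genes. *Pax5* at 0.60, *Blk* at 0.52 and *Cr2* at 0.22 were above 0, against 40.9% of genes. The median was −0.55, against −0.00 for all genes. The sum of the T cell markers was 4327 CPM in WT and 1652 CPM in KO, with 10 of 10 below 0 and 8 of 10 beyond 2-fold. Of 8 macrophage markers 8 were below 0, and of 7 stromal markers 5 lay beyond 2-fold higher in KO. The part of these in the members' ratios was not tested.

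The ratios in chow SAT also followed gene length. The median of all genes was −0.53 for genes under 1500 bases, −0.45 from 1500 to 3000, −0.09 from 3000 to 6000 and 0.55 over 6000. In the other 3 pairs these medians lay between −0.12 and 0.16. The shortest members, *Cd79b* (1431 bases) and *Cd79a* (1457 bases), had the lowest ratios, while *Pax5* (8853 bases) and *Cr2* (8112 bases) were above 0; over the 8 members Pearson's r of the ratio with log2 length was 0.627, as a description. *Ms4a1* (6187 bases) and *Blk* (2698 bases) departed from the trend in opposite directions. After subtraction of the all-gene trend, *Cd79b* was at −0.61, *Cd79a* at −0.15, *Pax5* at 0.02, *Cr2* at −0.12 and *Blk* at 0.94, and *Ms4a1* at −1.08 (interval −1.14 to −1.02) became the 1 member beyond 2-fold in place of *Cd79b*.

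**Figure D5:**
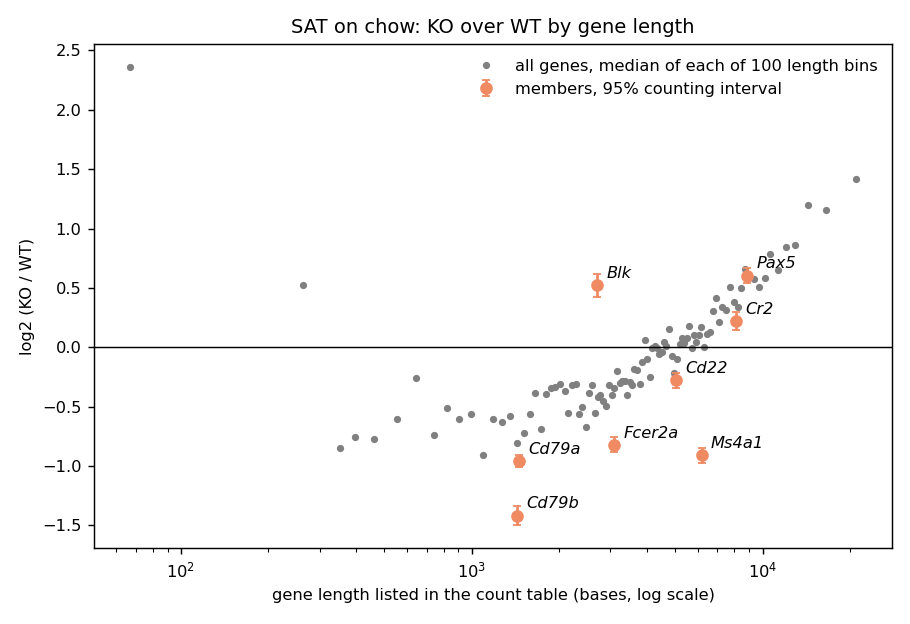
Log2 ratio of KO to WT in chow SAT (y axis) by the gene length listed in the table (x axis, log scale). Gray points are medians of all genes in 100 length bins and coloured points the 8 members with 95% counting intervals; the bins rise with length above about 3000 bases, and Ms4a1 lies below and Blk above the bins of its length.

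In VAT, 0 of 8 members lay beyond 2-fold between the library labelled KO and the one labelled WT, where 2.40% of genes were higher and 2.09% lower. *Cd79b* (0.65, interval 0.35 to 0.96) and *Ms4a1* (0.30) were above 0, against 26.6% of genes. *Cd22* (−0.78, interval −1.10 to −0.47), *Cr2* (−0.60), *Cd79a* (−0.23) and *Blk* (−0.23) were below 0, against 24.7% of genes. *Pax5* and *Fcer2a* spanned 0. With 56 to 497 counts per member, intervals were wider here than in the other pairs, up to −1.16 to −0.04 for *Cr2*.

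In muscle, 0 of 8 members lay beyond 2-fold, where 2.75% of genes were higher and 2.05% lower. *Cd79b* was above 0 (0.38, interval 0.26 to 0.49), against 26.7% of genes. *Cd22* (−0.41), *Cd79a* (−0.36), *Blk* (−0.30), *Pax5* (−0.29) and *Ms4a1* (−0.12) were below 0, against 29.4% of genes, while *Cr2* and *Fcer2a* spanned 0. The largest ratio in muscle, that of *Cd22*, was a 1.33-fold difference.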

How the data were processed

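RNAseq was done on FACS-sorted GFP+ cells. Per the labels, RNA was isolated with a column kit and libraries were made with a SMARTER mRNA kit, and the submitters' processing notes name HISAT2 2.0.5 with GRCm38 and mm10. The counting program and the use of strand are not given in the sources used here. The authors deposited whole-number read counts per Ensembl gene with no normalization, 1 column per library. The members and all lists were chosen with earlier results of these data known.

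Libraries were scaled by TMM over genes averaging 10 counts or more (edgeR 4.0.16, R 4.3.3), with factors of 0.877 to 1.14. Within a pair, the log2 ratio used a prior count of 0.5 and an exact conditional binomial (Clopper-Pearson) 95% interval, which covers counting error only. At these depths 3 counts correspond to 0.181 to 0.451 CPM. Tests used edgeR's robust quasi-likelihood fit of pair and genotype over 16971 genes, with Benjamini-Hochberg adjustment at 0.05. The procedures were tested on simulated data. Named genes are the 8 members, the 10 genes most like them, the 3 most abundant genes of each related list with any that passed a test or went against their list, and defining markers of other cell types; *Btk* and others of the lists are only counted. *Ebf1*, *Cd40*, *Cxcl13*, *Madcam1*, *Malat1*, *Mzb1*, *Derl3*, *Prdm1* and *Tnfrsf17* were named after their values were seen. A gene name with several entries (102 names) was taken by its first entry. Alternatives were median-of-ratios factors and the Wald test of DESeq2 1.42.0, library totals, other filters, a prior count of 5, TMM without immunoglobulin genes and members, no genotype term, no block, and each library or pair left out. TMM over all genes, removal of the length trend (100 bins), and the exchange or omission of the VAT labels were chosen after seeing the data. Results for a few list genes are not reported here. RefSeq promoter windows matched 5 of the 8 members.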

Additional observations from a re-analysis of the deposited data

Results flagged for a closer look

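Genotype differences of B cell identity genes pointed in opposite directions between pairs, in the sense that the 95% counting intervals of KO over WT lay wholly on opposite sides of 0. These differences between pairs were not tested, and the share of all genes with such opposite intervals was not counted. Within single pairs, intervals lay above 0 for 38.3% of genes in HFD SAT, 40.9% in chow SAT, 26.6% in VAT and 26.7% in muscle. They lay below 0 for 34.3%, 40.3%, 24.7% and 29.4% of genes, in the same order. Either side was thus common among all genes, and the counts below are not read as a trait of the members. Between HFD SAT and chow SAT this held for 3 of 8 genes: *Cd22* and *Fcer2a* were above 0 on HFD and below it on chow, and *Pax5* was the reverse. Between HFD SAT and VAT it held for 3 (*Cd22*, *Cd79b* and *Cr2*), and between HFD SAT and muscle for 2 (*Cd22* and *Cd79b*). Between chow SAT and VAT it held for 4 (*Blk*, *Cd79b*, *Cr2* and *Ms4a1*), between chow SAT and muscle for 3 (*Blk*, *Cd79b* and *Pax5*), and between VAT and muscle for 1 (*Ms4a1*). *Tert* goes against the VAT labels, with counts too few to tell whether they are right, and the 3 comparisons that involve VAT depend on them. With these labels exchanged they became 1 for HFD SAT and VAT (*Cd79a*), 2 for chow SAT and VAT (*Cd22* and *Cd79a*) and 4 for VAT and muscle (*Blk*, *Cd22*, *Cd79a* and *Cd79b*). *Cd79b* ranged from −1.42 in chow SAT to 0.38 in muscle among the pairs other than VAT, and was at 0.65 in VAT as labelled and −0.65 with the labels exchanged. With 1 library per genotype, a difference between pairs and a difference between single libraries cannot be told apart.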

How the results depend on the processing

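The 0 of 8 B cell identity genes that passed for KO over WT across pairs and for HFD over chow, and the counts beyond 2-fold within pairs, held under every alternative run, although in chow SAT removal of the length trend put *Ms4a1* in place of *Cd79b*. For muscle over chow SAT, the 0 of 8 became 2 with no filter on low counts, 3 with DESeq2's Wald test and 1 without genotype in the fit, and with 1 library left out it ran from 0 to 4. For VAT over chow SAT the 8 of 8 became 7 with median-of-ratios factors (*Blk* lost, edgeR adjusted p = 0.0638) and ran from 4 to 8 with 1 library left out. For muscle over VAT the 6 became 7 with no filter and with the Wald test (*Cd79b* gained), and ran from 1 to 8 with 1 library left out. Small values changed sign. *Ms4a1* in muscle became 0.0472 with library totals, *Cr2* in chow SAT −0.12 without the length trend, and *Cd22* for HFD over chow 0.00442 with median-of-ratios factors and 0.00290 with the Wald test. With a pair left out, KO over WT ran from −0.41 to 0.25 for *Cd79b*, −0.31 to 0.0822 for *Ms4a1*, −0.10 to 0.18 for *Pax5*, −0.49 to 0.0175 for *Cd22*, −0.12 to 0.20 for *Cr2*, −0.36 to 0.0205 for *Fcer2a* and −0.15 to 0.11 for *Blk*. With a library left out, HFD over chow ran from −1.11 to 0.61 for *Cd79b*, −0.13 to 0.52 for *Pax5*, −0.84 to 0.49 for *Cd22*, −0.58 to 0.0670 for *Cr2* and −0.45 to 0.16 for *Blk*. In the fit without the tissue and diet block, *Cd22* for KO over WT became 0.0287 and 0 genes of 16971 passed; the block itself comes from the labels, which give no replicate numbers, so no pairing beyond it could be tried. The cause of these changes was not tested.

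Over all genes, VAT over chow SAT called 857, which became 2116 with no filter, 2305 with the Wald test and 93 to 3449 with 1 library left out. Muscle over chow SAT called 213, which became 971, 1058, 339 without genotype and 37 to 1761. Muscle over VAT called 328, which became 1166, 1258, 542 and 41 to 1207. HFD over chow called 0, which became 289, 260 and up to 308, and KO over WT called 1, which became 41, 19 and 0 to 2. Low counts of the members limit VAT most, where *Cr2* and *Fcer2a* had 56 to 86 counts. The VAT libraries were not the shallowest, which was the WT library of HFD SAT with 6214269 counts in all.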

Other observations

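Genes of other stages of the B lineage did not follow the mature identity genes in every tissue. *Rag1*, which cuts the immunoglobulin genes during their assembly in B and T cell progenitors, had 412 and 568 counts (WT and KO) in muscle, 2 and 31 in chow SAT, 0 and 0 in HFD SAT, and 6 and 0 in VAT. *Igll1*, of the surrogate light chain of early B cells, had 116 and 202 counts in muscle and at most 8 in any other library. *Dntt*, which adds bases at the joints, had 251 and 315 counts in muscle, 151 and 93 in chow SAT and 4 and 14 in VAT; it was higher in muscle than in VAT (edgeR adjusted p = 0.0358). *Rag1* (edgeR adjusted p = 0.146) and *Igll1* (edgeR adjusted p = 0.0979) did not pass in that comparison. *Il7r*, which T cells express too, was lower in muscle than in chow SAT by 1.95 on the log2 scale (edgeR adjusted p = 0.0456). Of the 7 progenitor genes 5 passed the filter on low counts. Neutrophil markers were also high in both muscle libraries, and their part in these levels was not tested.

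Among plasma cell genes 0 of 7 passed between VAT and chow SAT, with a median log2 fold change of 0.50, where the identity genes had −3.80. That median is the value of *Xbp1*, and the genes of the list differed in direction. *Tnfrsf17* (2.30 ± 1.94 SE), *Prdm1* (1.89 ± 0.619) and *Sdc1* (0.99 ± 0.342) were positive too. *Mzb1* (−2.35 ± 0.570 SE, edgeR adjusted p = 0.0591), *Jchain* (−0.69 ± 0.690) and *Derl3* (−0.37 ± 1.17) were negative. *Jchain*, which joins secreted IgA and IgM, was at 26.5 and 42.2 CPM in HFD SAT, 216 and 118 CPM in chow SAT, 39.4 and 204 CPM in VAT (labelled WT and KO), and 173 and 162 CPM in muscle. The VAT libraries differed 5.18-fold in *Jchain*, while their summed identity genes were at 163 and 156 CPM. *Xbp1* and *Sdc1*, which many cells express, did not pass. Of 3 immunoglobulin constant genes *Ighd* was lower in VAT, while *Ighm* (−1.38 ± 0.466 SE) and *Igkc* (−1.65 ± 0.653) did not pass. *Ighm* was at 545 and 939 CPM in VAT and 2470.4 and 1364 CPM in chow SAT.

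Of the 4 germinal centre genes tested 0 passed between VAT and chow SAT, *Bcl6* being at 0.82 ± 0.406 SE. Of 6 B-1 cell genes, *Cd5*, which T cells also carry, fell in VAT by 3.23, while *Cd36*, a fatty acid receptor of endothelium and macrophages, rose by 3.39; *Spn* and *Cd9* did not pass.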
